A study of Mus musculus with 4 samples.

Results

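The axon guidance ligands and receptors were taken as 69 protein-coding genes of the GENCODE M21 annotation of the mouse genome (build mm10), chosen by symbol from 21951 protein-coding genes. They comprised 35 ligands, namely the class 3 to class 7 semaphorins, the ephrins, the Slits and the netrins, and 34 receptors, namely the plexins, the neuropilins, the Eph receptors, the Robo receptors, the Unc5 receptors and Dcc. The N6-methyladenosine (m6A) of their mRNAs was read from m6A-seq, in which fragmented mRNA is precipitated with an antibody against m6A and the sequenced fragments are compared with the unprecipitated input. The RNA came from whole brain of C57BL/6J mice aged 4 weeks. The series describes these mice as Prrc2a flox/flox, an allele prepared for Cre deletion of the m6A reader gene Prrc2a, and the labels name neither a Cre driver nor a treatment. There was 1 group, with 2 precipitated samples and an input for each, and the labels do not say whether the replicates came from separate mice. Without a second condition, no comparison between conditions could be made and no p-value was computed, and genes and peaks were not treated as replicates.

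Axon guidance cues are secreted or membrane-bound proteins that attract or repel the growth cone at the tip of a growing axon. Semaphorins act through plexins, with neuropilins as co-receptors for most secreted class 3 members. Ephrins act on Eph receptor tyrosine kinases, Slits on Robo receptors and netrin-1 on Dcc and Unc5 receptors, and many of these genes stay active in the adult brain at synapses, vessels and glia. In mRNA, m6A is known to lie mostly near stop codons and in long exons, at an A within a short sequence in which GGAC is the most usual core.

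For each replicate the peaks carry a fold enrichment, the ratio of precipitated over input signal. The lists held 38533 peaks in replicate 1 and 30134 in replicate 2, with median fold enrichments of 2.88 and 2.20. A shared interval was defined as the bases that a replicate 1 peak and a replicate 2 peak have in common, and a gene had a shared peak when such an interval touched an exon of any of its transcripts. A matching pair was a replicate 1 and a replicate 2 peak that were each the best partner of the other. As a check of the tissue, 4 of 4 neuron genes, 3 of 3 astrocyte genes and 3 of 3 oligodendrocyte genes had a shared peak, and of 4 genes of other tissues 1 did (Myh6). Of all protein-coding genes 45.6% had one, and of those with 5 to 8 kb of exon 65.1%, so these few genes are a weak check.

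Most guidance genes carried m6A peaks in both replicates. A shared peak was found in 62 of the 69 genes (89.9%), against 45.6% of all protein-coding genes, and 42 of the 69 had at least 2 shared intervals, against 27.0% of all protein-coding genes. Taken singly, replicate 1 had a peak in 66 of the 69 (54.4% of all protein-coding genes) and replicate 2 in 64 (49.5% of all protein-coding genes). With a fold enrichment of at least 2 required in both replicates, 55 of the 69 remained, against 36.8% of all protein-coding genes. In total 147 shared intervals lay over these genes, 61 on ligands and 86 on receptors, and they formed 138 matching pairs.

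The 7 genes without a shared peak were of 3 kinds. Efna4, a membrane-anchored ephrin, and the receptors Epha1 and Epha2 had no peak in either replicate. Efna1 and Sema3b had a peak in replicate 1 alone, at fold enrichments of 3.87 in the 3′ UTR and 2.36 across the stop codon. Ntn5 and the netrin receptor gene Unc5d had peaks in both lists that did not overlap, 1 and 1 for Ntn5 and 3 and 2 for Unc5d. The peak lists hold no expression values, so a gene that is little transcribed in brain and a transcribed gene without m6A cannot be told apart here. In whole brain, likewise, fewer cells of a type and less RNA per cell cannot be told apart.

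Ligands and receptors had a shared peak about equally often, in 31 of 35 ligands (88.6%) and 31 of 34 receptors (91.2%). The order turned when a fold enrichment of at least 2 was required in both replicates, with 29 of 35 ligands (82.9%) and 26 of 34 receptors (76.5%). It also turned in replicate 1 taken alone, with 34 ligands (97.1%) and 32 receptors (94.1%), while replicate 2 had 32 of each. The difference was thus smaller than the change from one setting to the next.

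Guidance genes are long, and long genes have more room for a peak. The median exon length, summed over the union of exons, was 6848 nt in the 69 genes, 5406 nt in ligands and 7967 nt in receptors, against 3498 nt in all protein-coding genes. Within bands of exon length, a shared peak was found in 2 of 5 ligands under 3 kb (24.3% of all protein-coding genes of that length), in 8 of 9 ligands and 4 of 6 receptors of 3 to 5 kb (51.3%), in 13 of 13 ligands and 11 of 11 receptors of 5 to 8 kb (65.1%), and in 8 of 8 ligands and 16 of 17 receptors from 8 kb (75.1%). Per kilobase of exon, genes with a shared peak had a median of 0.319 intervals in ligands and 0.301 in receptors, below the 0.400 of all protein-coding genes with a shared peak. Each of these genes has at least 1 interval, so a short gene cannot have a low value, and these medians are not matched for length. In genes with a shared peak, the median number of intervals at 5 to 8 kb was 2 in ligands, receptors and all protein-coding genes. From 8 kb it was 2, 3 and 3, and at 3 to 5 kb 1.5, 1 and 2.

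The median fold enrichment was higher over ligand pairs than over receptor pairs in both replicates, though not in every family. The 55 ligand pairs had a median fold enrichment of 3.85 in replicate 1 and 2.60 in replicate 2, the 83 receptor pairs 3.02 and 2.26, and all 20997 pairs over protein-coding genes 2.98 and 2.30. Semaphorins had the highest medians of the ligand families, 4.63 and 2.82 over 29 pairs, while the 9 netrin pairs lay at 3.64 and 2.41, the 11 ephrin pairs lay at 3.22 and 2.34 and the 6 Slit pairs at 2.39 and 2.04. Among receptors, the 35 Eph pairs lay at 3.25 and 2.56, the 28 plexin pairs at 2.82 and 2.1, the 10 Robo pairs at 2.58 and 1.95 and the 4 Unc5 pairs at 2.62 and 1.95. The 5 neuropilin pairs (5.16 and 2.72) and the 1 pair of Dcc (7.19 and 2.81) lay above the ephrin, netrin and Slit medians in both replicates and above the semaphorin median in replicate 1. The replicates differed in scale: 116 of the 138 pairs (84.1%) were higher in replicate 1, as were 78.2% of all pairs over protein-coding genes.

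**Figure D1:**
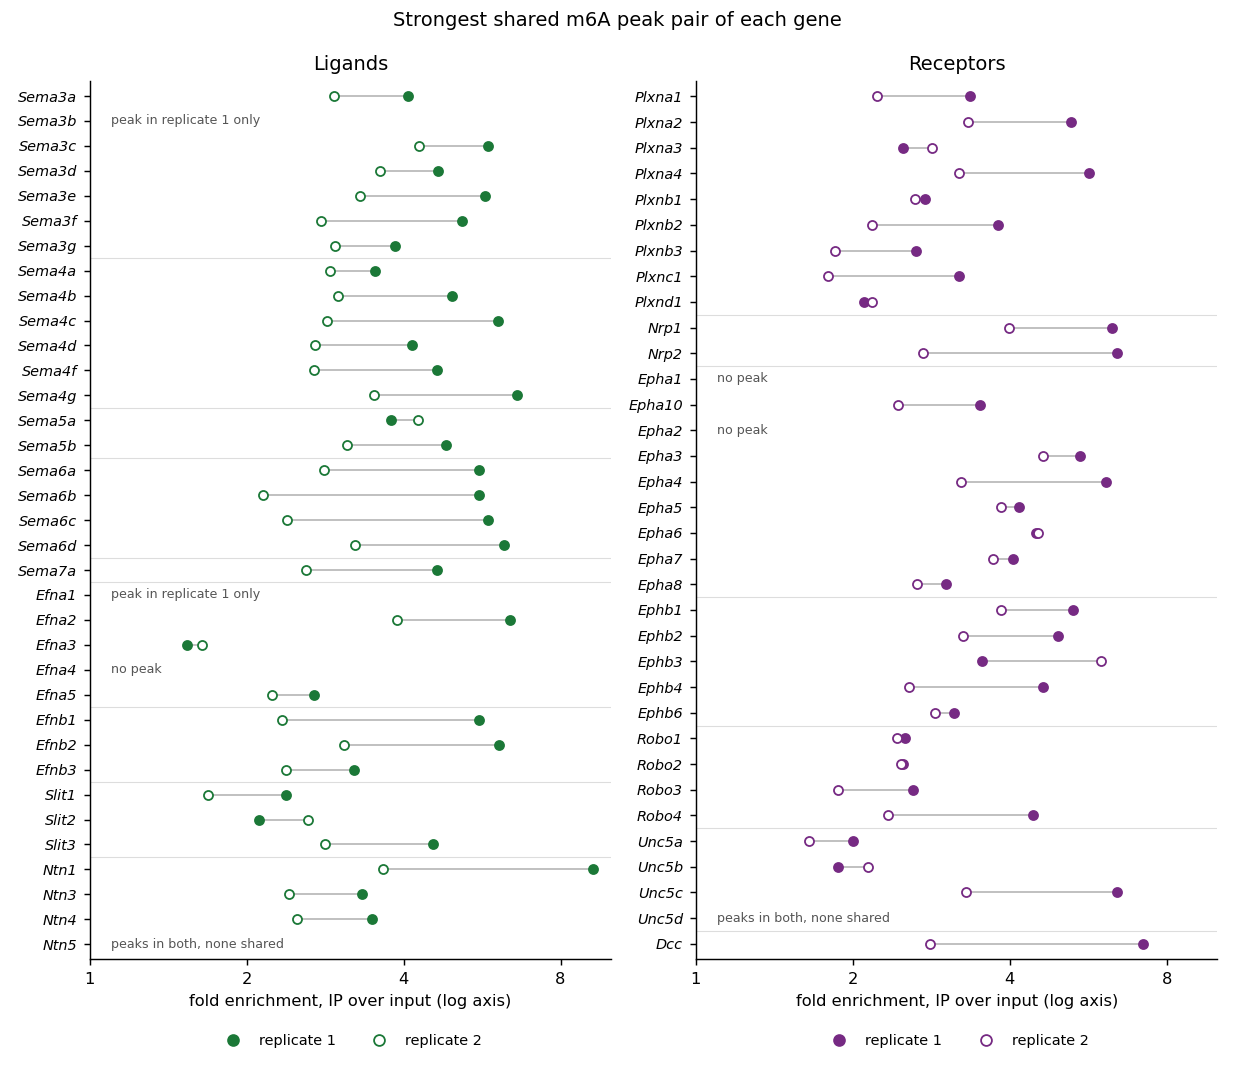
Fold enrichment (log axis) of the strongest matching pair of each gene, taken as the pair with the highest lower value, with ligands on the left and receptors on the right; filled points are replicate 1 and open points replicate 2. By the lower of the 2 values Efna3 (1.54), Unc5a (1.65) and Slit1 (1.69) lie lowest and Epha3 (4.63) highest, and the 7 genes without a shared peak are named with the kind of peak they have.

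The 10 genes with the highest lower fold enrichment were 6 receptors and 4 ligands: Epha3 (5.45 in replicate 1 and 4.63 in replicate 2), Epha6 (4.49 and 4.53), Sema3c (5.81 and 4.28), Nrp1 (6.28 and 3.98), Efna2 (6.39 and 3.89), Epha5 (4.17 and 3.85), Ephb1 (5.28 and 3.84), Sema5a (3.78 and 4.26), Epha7 (4.06 and 3.72) and Ntn1 (9.24 and 3.65). Of these, 5 were Eph receptors. The pair of Ntn1 lay on an exon outside its longest coding transcript.

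**Figure D2:**
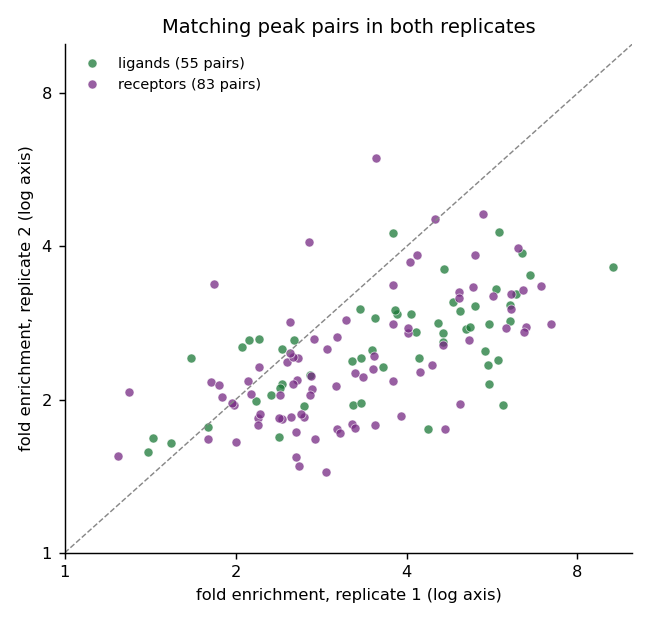
Fold enrichment of the 138 matching pairs in replicate 1 against replicate 2, both on log axes, with ligands in green, receptors in purple and a dashed line of equal values. Most points, 116 of 138, lie below the line, and the pairs furthest from it are those of Ntn3, Robo4, Sema6b, Dcc and Nrp2 at 1.34 to 1.60 on the log2 scale.

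The classes differed in where on the mRNA the intervals lay. Positions were read on the representative transcript, the annotated transcript with the longest coding sequence (CDS), which held the midpoint of 57 of 61 ligand intervals and 76 of 86 receptor intervals. In ligands 45 of the 57 midpoints (78.9%) fell in the last exon, which made up 51.0% of the bases of the same transcripts. In receptors 28 of 76 (36.8%) did, with 32.2% of bases. The first exon held 9 ligand midpoints (15.8%, with 12.3% of bases) and 14 receptor midpoints (18.4%, with 6.53% of bases). Internal exons of at least 400 nt held 18 receptor midpoints (23.7%, with 11% of bases) and 2 ligand midpoints (3.51%, with 1.84% of bases). Internal exons under 400 nt held 1 ligand midpoint (1.75%, with 34.9% of bases) and 16 receptor midpoints (21.1%, with 50.3% of bases). Over all protein-coding genes the last exon held 45.8% of midpoints and 47.1% of bases, the long internal exons 15.0% and 9.26%, and the short internal exons 23.1% and 31.1%.

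**Figure D3:**
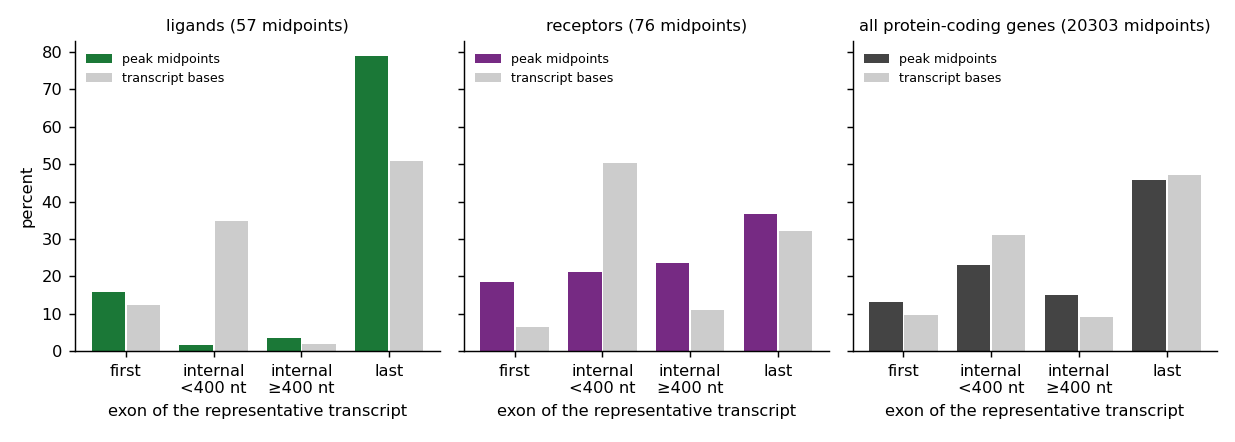
Percent of shared-interval midpoints (coloured or dark bars) and percent of transcript bases (grey bars) in the first exon, in internal exons under and of at least 400 nt, and in the last exon, for ligands, receptors and all protein-coding genes; single-exon genes are left out of the bars. Ligand midpoints stand at 78.9% in the last exon, and receptor midpoints exceed their share of bases in the first exon, in long internal exons and, at 36.8% against 32.2%, in the last exon.

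A shared interval covered the stop codon in 22 of 35 ligands (62.9%) and 10 of 34 receptors (29.4%), against 23.6% of 21612 protein-coding genes with an annotated stop codon. This difference between the classes rested largely on the semaphorins, with 17 of 20 genes. The other ligand families had such an interval in 1 of 8 ephrins, 2 of 3 Slits and 2 of 4 netrins. Over the start codon the order was the other way round, with 3 of 35 ligands (8.57%) and 7 of 32 receptors (21.9%; Epha10 and Robo1 lack an annotated start codon), against 10.3% of 21487 protein-coding genes. The start codons were those of Sema4g, Efnb2 and Ntn3 among ligands and of Epha5, Epha6, Epha7, Ephb6, Nrp2, Plxna2 and Unc5b among receptors. These shares include genes without any shared peak, which were a smaller part of guidance genes. A shared peak anywhere was found in 31 ligands, 31 receptors and 9999 protein-coding genes. It covered the stop codon in 22, 10 and 5099 of them, and the start codon in 3, 7 and 2214. Among such genes the stop codon share was thus above all protein-coding genes in ligands and below in receptors. At the start codon the receptors were close to all protein-coding genes. By midpoints, 24.6% of ligand intervals and 11.8% of receptor intervals lay within 200 nt of the last base of the stop codon, a window that held 9.26% and 6.66% of the bases. Over all protein-coding genes it held 23.1% of midpoints and 12.0% of bases, so the ligand share of midpoints was close to that of all genes and the receptor share below it. The share of midpoints in CDS was 38.6% for ligands (49.7% of bases) and 42.1% for receptors (64.3% of bases), below the 61.4% of all protein-coding genes (54.1% of bases). The strongest pair of a gene covered the stop codon in 19 of 31 ligands and 8 of 31 receptors.

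Semaphorins, cues that carry a sema domain, held most of the stop codon peaks. Of 20 semaphorin genes, 19 had a shared peak and 17 had it over the stop codon, which lies in the last exon in each of them. Across the 17, fold enrichment ran from 3.52 to 6.60 in replicate 1 and from 2.15 to 4.28 in replicate 2, with medians of 4.82 and 2.94, and each of the 17 was higher in replicate 1. These intervals were wide, from 299 nt in Sema4d to 1570 nt in Sema6a. They held from 1 GGAC, in Sema3d and Sema5a, to 14 in Sema6b. The 3 genes without such an interval differed among themselves. Sema3b had its single replicate 1 peak there, Sema4b had intervals on both sides of the stop codon under 1 wide replicate 1 peak (4.96), and the Sema3f interval (5.17 and 2.78) lay on an exon of another isoform. The representative Sema3f transcript has 2383 nt, of which 2355 nt are CDS, so an interval in a longer 3′ UTR could not be placed on it. Of 30 placed semaphorin midpoints, 28 were in the last exon (93.3%, with 51.7% of bases), and none was in an internal exon under 400 nt, where 40.5% of the bases lie.

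**Figure D4:**
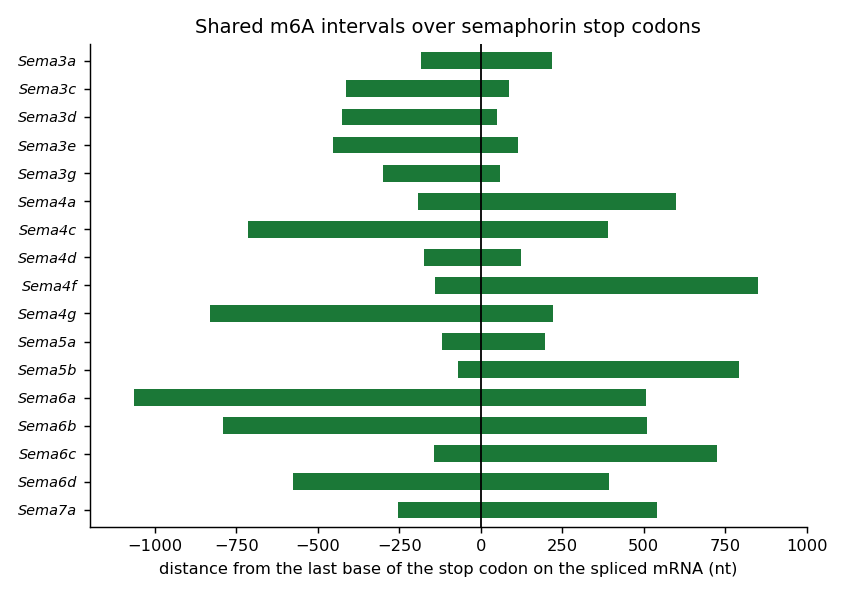
Extent of the shared interval over the stop codon of 17 semaphorin genes, in nt on the spliced mRNA from the last base of the stop codon (vertical line), with coding sequence to the left. Class 3 intervals end within 220 nt after the stop codon, whereas those of Sema4a, Sema4f, Sema5b and Sema6c run 600 nt or more into the 3′ UTR.

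Among the secreted class 3 semaphorins, the interval began 183 to 452 nt before the end of the stop codon. Sema3c had the highest lower fold enrichment of this family, and further intervals at 3.31 and 3.02 and at 5.09 and 2.75. Sema3a, the collapsing factor for growth cones, was at 4.08 and 2.94, Sema3d at 4.65 and 3.61, Sema3e at 5.74 and 3.30 and Sema3g at 3.85 and 2.95. Of the membrane-bound classes, Sema4g led class 4 (6.60 and 3.51), Sema6d led class 6 (6.23 and 3.23), and Sema4d, the class 4 member with the most intervals, had 4. Sema7a, a lipid-anchored semaphorin, was at 4.63 and 2.60. To show what the stop codon intervals hold, the GGAC nearest the stop codon is given within 30 bases for 1 member of each class, the one with the highest lower fold enrichment over the stop codon. The capitals mark that nearest GGAC alone, so that a further one in the Sema6d stretch stands in lower case, and the letters are read on the transcript strand of the GENCODE M21 transcripts, and the coordinates are of build mm10. Counted from the last base of the stop codon, the A lay at -73 nt in Sema3c, -90 nt in Sema4g, -89 nt in Sema6d and -103 nt in Sema7a, in the CDS of the last exon, and at 16 nt in Sema5b, in the 3′ UTR of the last exon.
Sema3c (chr5:17727668-17727697, plus strand): agaagatgagaggGGACtatggcaagctga
Sema4g (chr19:45001892-45001921, plus strand): tggagtgccagcaGGACcctgctcctttgc
Sema5b (chr16:35663276-35663305, plus strand): tcccaccctcctgGGACttgggctccttgc
Sema6d (chr2:124665205-124665234, plus strand): acgggactaaagaGGACaccatccttaaaa
Sema7a (chr9:57961483-57961512, plus strand): agctgctgccagaGGACagagcactggccg

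Plexins, the main semaphorin receptors, had a shared peak in 9 of 9 genes. Of their 28 placed midpoints, 2 (7.14%) fell in the 200-nt windows around the stop codon, which made up 4.6% of the bases, against 23.1% of midpoints and 12.0% of bases over all protein-coding genes. In 8 of the 9 an interval lay in the longest exon before the last exon, which is an early exon in each of them. This exon was exon 2 in Plxna1 (1261 nt), Plxna2 (1262 nt), Plxna3 (624 nt), Plxna4 (1270 nt) and Plxnb3 (1061 nt), exon 3 in Plxnb1 (1113 nt), exon 4 in Plxnb2 (1087 nt) and exon 1 in Plxnd1 (1517 nt). In that exon the fold enrichments were 3.91 and 1.86 in Plxna1, 4.94 and 3.17 in Plxna2, 3.49 and 2.30 in Plxna3 and 2.76 and 1.67 in Plxna4. In the other four they were 2.41 and 1.83 in Plxnb1, 3.02 and 1.75 in Plxnb2, 2.64 and 1.85 in Plxnb3 and 2.56 and 1.73 in Plxnd1. Plxnc1 had none in its first exon of 1319 nt, and a single interval in exon 9 (3.20 and 1.79). Over all 18187 protein-coding genes with at least 3 exons in the representative transcript, 20.4% had a shared interval in their longest exon before the last, and of the 6342 in which that exon had at least 400 nt, 40.9% did. The pattern was noticed in the data and then counted.

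Plxna2 had the most intervals of any guidance gene, with 7, among them the start codon (4.94 and 3.17) and the stop codon (5.23 and 3.33). Plxna4 had 5, of which 4 lay in its long 3′ UTR, the strongest at 5.67 and 3.20. Of the plexins, Plxna1 and Plxna2 had a shared interval over the stop codon. The neuropilins, which bind class 3 semaphorins, were more enriched than the plexins: Nrp1 had a single interval over the stop codon, with 839 nt of the last exon (6.28 and 3.98), and Nrp2 had 4, the strongest 169 nt after the stop codon (6.43 and 2.72). Side by side with the cues they are known to bind, Sema3a (4.08 and 2.94) and Nrp1 thus both had their peak over the stop codon. On their representative transcripts Sema3f (5.17 and 2.78) and Nrp2 did not, and that of Sema3f has almost no 3′ UTR. The strongest pairs of the class A plexins that signal with neuropilins were 3.35 and 2.22 in Plxna1, 5.23 and 3.33 in Plxna2, 2.49 and 2.84 in Plxna3 and 5.67 and 3.20 in Plxna4.

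Eph receptors, the largest family of receptor tyrosine kinases, had a shared peak in 12 of 14 genes, and their intervals came back at the same place in the gene. Of the 14, 10 have an exon 3 of 661 to 685 nt. In 8 of these 10 a shared interval lay in this exon, and the bases from position 189 to position 260 of the exon were inside the interval of each of the 8. Counted without regard to exon number, 10 of all 14 Eph receptors (71.4%) had a shared interval in their longest exon before the last, against 40.9% of all protein-coding genes in which that exon had at least 400 nt. That exon was exon 17 of 18 in Epha4, exon 1 in Epha10 and exon 5 in Ephb6, so this count is not one of exon 3 alone. In exon 3 the fold enrichments were 5.45 and 4.63 in Epha3, 6.11 and 3.22 in Epha4, 4.17 and 3.85 in Epha5, 2.58 and 2.41 in Epha6, 3.78 and 3.36 in Epha7 and 3.02 and 2.66 in Epha8. In the EphB receptors they were 2.90 and 2.52 in Ephb1 and 2.50 and 1.85 in Ephb2. Each of the 8 was higher in replicate 1, with medians of 3.4 and 2.94. The 2 without an interval there were Epha2, which had no peak at all, and Ephb3, whose 2 intervals were in the 5′ UTR (3.53 and 5.97) and in the 3′ UTR (6.5 and 2.78). Ephb6, whose exon 3 has 204 nt, had 1 of its 5 intervals in exon 5, of 763 nt (4.22 and 2.27), with its midpoint in CDS. This pattern, too, was noticed in the data before it was counted.

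**Figure D5:**
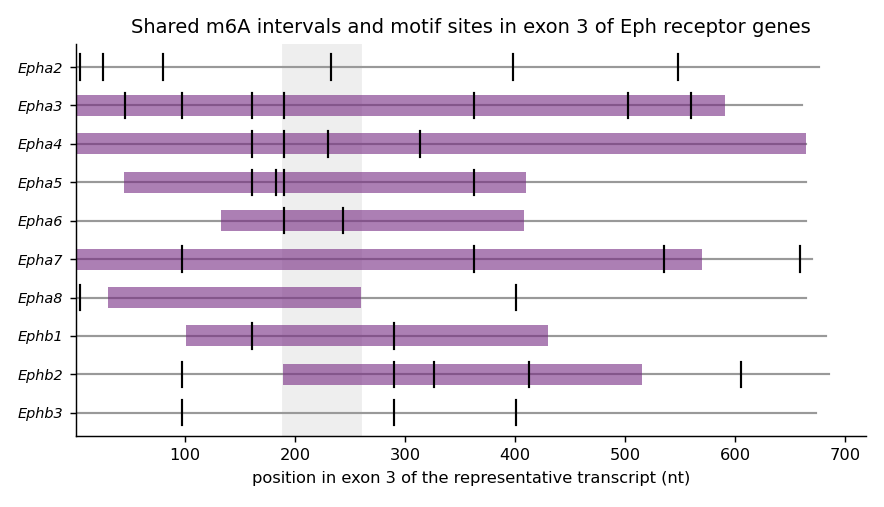
Exon 3 of the 10 Eph receptor genes in which it has 661 to 685 nt (grey lines, positions in nt from the start of the exon), with the shared interval (purple) and each GGAC (black ticks, drawn at the A). The pale band marks positions 189 to 260, which lie in all 8 intervals; Epha2 and Ephb3 have no interval here.

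GGAC sites recurred at the same exon position in several of these genes. The A of a GGAC stood at exon position 161 in Epha3, Epha4, Epha5 and Ephb1, and at position 190 in Epha3, Epha4, Epha5 and Epha6, and in each case it lay inside the shared interval. Position 363 held 1 in Epha3, Epha5 and Epha7, again inside the interval. Position 97 held 1 in Epha3, Epha7, Ephb2 and Ephb3, of which those of Epha3 and Epha7 were inside an interval. Position 290 held 1 in Ephb1, Ephb2 and Ephb3, inside the interval of the first 2. Positions 5 (Epha2 and Epha8) and 401 (Epha8 and Ephb3) recurred with no site inside an interval. The interval of Epha8 held no GGAC, and 2 genes had GGAC in this exon without an interval, Ephb3 with 3 and Epha2, which had no peak at all, with 6. The number of sites inside the interval thus ran from 0 in Epha8 to 7 in Epha3. The intervals differed in width: in Epha4 the interval covered the whole exon, positions 1 to 664, in Epha3 positions 2 to 591 and in Epha8 positions 30 to 260. In the widest of them nearly any site of the exon lies inside. Positions 161 and 190 were picked for display as those with the most sites inside an interval, so that their lying inside is no result. The 24 bases of exon 3 around them are shown for the 8 genes with an interval and for Ephb3, with GGAC in capitals. They are read 5′ to 3′ on the transcript strand, from the GENCODE M21 transcripts and in mm10 coordinates. Epha2 is not shown and has no GGAC in either stretch. The stretch around position 161 read as follows, and in Ephb2 it lay outside the interval.
Epha3 (chr16:63773398-63773421, minus strand): cacactgcgGGACtgtaacagcat
Epha4 (chr1:77507039-77507062, minus strand): cactctaagGGACtgcaacagtct
Epha5 (chr5:84331719-84331742, minus strand): tactttaagGGACtgcaacagcct
Epha6 (chr16:60425212-60425235, minus strand): cacactgagggattgtaacagcat
Epha7 (chr4:28821148-28821171, plus strand): caccttgagggattgtaatagtct
Epha8 (chr4:136946143-136946166, minus strand): caccctgcgtgactgcaatagcat
Ephb1 (chr9:102195283-102195306, minus strand): cactgtgagGGACtgcagcagcct
Ephb2 (chr4:136771468-136771491, minus strand): ctcggtgcgtgactgcagcagcat
Ephb3 (chr16:21214474-21214497, plus strand): caccgtaagagactgtaacagcat

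The stretch around position 190 was in part inside the interval of Ephb2 and wholly inside the intervals of the other 7. In Epha5 it holds a second GGAC, with its A at position 183 of the exon.
Epha3 (chr16:63773369-63773392, minus strand): tggttttggGGACttgcaaggaga
Epha4 (chr1:77507010-77507033, minus strand): gcgtcatggGGACttgcaaggaga
Epha5 (chr5:84331690-84331713, minus strand): gaGGACtggGGACttgtaaggaga
Epha6 (chr16:60425183-60425206, minus strand): gggtcttggGGACttgtaaagaaa
Epha7 (chr4:28821177-28821200, plus strand): gagtcctgggaacttgcaaggaaa
Epha8 (chr4:136946114-136946137, minus strand): gggtgttaggtacctgcaaggaga
Ephb1 (chr9:102195254-102195277, minus strand): atgtcccaggctcctgcaaggaga
Ephb2 (chr4:136771439-136771462, minus strand): gcgtgccgggctcctgcaaggaga
Ephb3 (chr16:21214503-21214526, plus strand): acatccctggctcctgcaaggaaa

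Outside exon 3, Eph receptor intervals lay mostly in the first and last exons, with 6 and 10 of 30 placed midpoints. Epha5 and Ephb6 had the most, with 5 each. An interval covered the stop codon in Epha4 (6.12 and 3.01), Epha6 (4.49 and 4.53), Epha7 (6.91 and 3.35), Ephb1 (5.28 and 3.84), Ephb4 (4.63 and 2.56) and Ephb6 (3.13 and 2.87). Ephb3 was the Eph receptor with the highest replicate 2 value, 5.97 in the 5′ UTR, where replicate 1 was at 3.53. In Epha10 the representative transcript lacks an annotated start codon, and 3 of its 4 intervals were not placed on it.

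Ephrins, the membrane-bound partners of Eph receptors, have short coding sequences, with a median of 687 nt, and their intervals lay mostly in 3′ UTRs, with 9 of 12 midpoints (75%, against 58.4% of bases). A shared peak was found in 6 of 8. Efna2 led the lipid-anchored ephrin-A genes, with intervals 1025 nt (6.39 and 3.89) and 455 nt (4.20 and 2.42) after the stop codon. Efna3 (1.54 and 1.64) was the weakest of the guidance genes by its strongest pair, and Efna5 stood at 2.70 and 2.24. The highest Efna3 peaks, 3.67 in replicate 1 and 2.52 in replicate 2, lay outside that pair. The transmembrane ephrin-B genes each had several intervals: 3 in Efnb1, the strongest in CDS (5.57 and 2.34), 3 in Efnb2, the strongest over the stop codon (6.09 and 3.07), and 2 in Efnb3 under 1 replicate 1 peak (3.21). Efnb2 was thus the ephrin with an interval over its stop codon, at a width of 1277 nt with 13 GGAC. Set beside them, the strongest pairs of the EphB receptors were 5.28 and 3.84 in Ephb1, 4.94 and 3.25 in Ephb2, 3.53 and 5.97 in Ephb3, 4.63 and 2.56 in Ephb4 and 3.13 and 2.87 in Ephb6, of which those of Ephb1, Ephb4 and Ephb6 covered the stop codon.

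Outside exon 3 and the semaphorin stop codons, most of the strongest intervals of the 10 leading genes had their midpoint in a UTR. Of these intervals, those of Epha6, Nrp1 and Ephb1 also covered the stop codon and that of Epha7 the start codon. For the intervals with a site, the GGAC nearest the middle of the interval is printed within 30 bases, in capitals, to show the sequence under the most enriched peaks. In Epha6, Nrp1, Efna2 and Ephb1 it lies in the 3′ UTR, with the A 301, 104, 995 and 551 nt after the stop codon, and in Epha7 in the 5′ UTR. The intervals of Sema5a and Ntn1 in this group held no GGAC on the representative transcript.
Epha6 (chr16:59653705-59653734, minus strand): gggaagtgttcatGGACttcacctaaagga
Nrp1 (chr8:128502903-128502932, plus strand): ctgggaagggcggGGACtctgttactccgc
Efna2 (chr10:80189770-80189799, plus strand): tacagcaggcaaaGGACtgagtgaagctgg
Ephb1 (chr9:101922921-101922950, minus strand): gtcagttgccaaaGGACtttgctgaccact
Epha7 (chr4:28813244-28813273, plus strand): agcagacggcctgGGACccagaaggggatc

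Slits, secreted repellents of commissural axons, and their Robo receptors were among the less enriched families. Slit1 had 1 interval, over the stop codon (2.38 and 1.69), and Slit3 had its strongest there too (4.55 and 2.83). Slit2 had 4 intervals, of which 3 lay in its long 5′ UTR (3.33 and 1.97 the most upstream) and 1 in the 3′ UTR (2.39 and 2.11). A further Slit2 peak of replicate 1 at 5.65, the highest value of the gene, had its midpoint in CDS at -184 nt from the stop codon and no partner in replicate 2. The 4 Robo genes had 10 intervals, of which 9 were placed, with 7 in CDS, and none covered a stop codon. Robo1 had 4, from 2.52 to 3.06 in replicate 1 and from 1.48 to 2.43 in replicate 2, and Robo2 had 3, from 2.39 to 2.52 and from 2.04 to 2.47. In both genes 1 of them lay in exon 2, of 327 nt. Robo3 had an overlap of 31 nt between its peaks (2.61 and 1.87), too short to pass an overlap of 50%. Robo4, the Robo receptor of vessels, had its strongest pair with its midpoint off the representative transcript (4.43 and 2.34) and 1 in the 3′ UTR (4.67 and 1.75).

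Netrin genes and their receptors differed within each family. Ntn1, which encodes the classic midline attractant, had an interval over the stop codon (5.29 and 3.05) besides the stronger one on another isoform. Ntn3 had 4 intervals, over the stop codon (5.92 and 1.95), over the start codon (3.64 and 2.32), elsewhere in its first exon (3.33 and 2.41) and in the 3′ UTR (2.17 and 1.99), and the start codon interval also touched an exon of BC028777 and the 3′ UTR interval one of Tbc1d24. Ntn4 had 3, the strongest in CDS (3.48 and 2.50). Dcc, the attractive netrin receptor, had both of its intervals in the 5′ UTR, under 1 replicate 1 peak of 7.19, with 2.81 and 2.57 in replicate 2. A peak of 3.02 centred 71 nt after its stop codon in replicate 1 had no partner in replicate 2. Among the Unc5 receptors, which mediate repulsion, Unc5c had a pair over the stop codon (6.42 and 3.29) and an overlap of 32 nt that also touched an exon of Gm15688, Unc5b had intervals in the 5′ UTR (3.25 and 1.76) and 3′ UTR (1.87 and 2.14), Unc5a had 1 in CDS (2.00 and 1.65) and Unc5d had none.

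Pooled by class, intervals were denser in GGAC than the rest of the same mRNAs. On the representative transcripts of genes with a shared peak, ligands had 7.01 GGAC per kilobase inside intervals and 4.62 outside, and receptors 6.57 and 4.89, against 6.08 and 3.86 for all protein-coding genes. The gap differed by family. It was small in class 4 semaphorins (6.07 and 6.03), EphB receptors (6.83 and 6.49) and Robo receptors (5.24 and 4.76), and larger in ephrins (8.26 and 3.72). At least 1 GGAC was present in 49 of the 61 ligand intervals and 64 of the 86 receptor intervals. An interval off the representative transcript counts as having none. The median interval had 316 nt in ligands and 318 nt in receptors. At the densities outside intervals, a stretch of that length would often hold a GGAC too. The share of such stretches with a GGAC was not computed, so these counts show no excess by themselves. GGAC was searched as these letters on the transcript strand alone. A match marks a possible site and was not measured as methylated, and a peak, of at least 200 nt here, is wider than a site.

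The replicates were furthest apart at 5 pairs, each higher in replicate 1: the stop codon interval of Ntn3 (5.92 and 1.95), the 3′ UTR interval of Robo4 (4.67 and 1.75), the stop codon interval of Sema6b (5.59 and 2.15), the 5′ UTR interval of Dcc (7.19 and 2.81) and an interval of Nrp2 on another isoform (4.97 and 1.96). Of the peaks over ligands, 74.4% of 78 in replicate 1 and 69.8% of 86 in replicate 2 overlapped a peak of the other replicate, and of those over receptors 72.4% of 116 and 75.4% of 114. Over all protein-coding genes these shares were 67.8% and 76.8%. In ligands, peaks that overlapped had a median fold enrichment of 3.83 in replicate 1 and those that did not 2.84, and in receptors 3.01 and 2.24.

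Among other genes of the pathway, 43 of 51 textbook axon guidance genes (84.3%) had a shared peak, against 45.6% of all protein-coding genes. Their median exon length was 7376 nt, against 3498 nt. Of 17 co-receptors and further cues 16 (94.1%) had one, the exception being Draxin, a netrin antagonist. The strongest pair was 6.72 and 4.05 in Ntng1, a membrane-anchored netrin relative, and 5.60 and 3.77 in Neo1, a receptor related to Dcc. Of 34 genes that signal below the receptors 27 (79.4%) had one, with up to 10 intervals in Mical3, an oxidoreductase that disassembles actin downstream of plexins. The 7 without were Dpysl4, Mical1, Dock1, Ngef, Rac1, Rhoa and Limk1. Of these genes, Rac1, the GTPase that drives actin assembly, had no peak in either list, and Rhoa had 2 peaks in replicate 1 and none in replicate 2. Their pairs had median fold enrichments of 3.0 and 2.29 over 130 pairs.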

How the data were processed

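Whole brain mRNA of C57BL/6J mice was analysed in 2 m6A precipitations, each with its own input. Per the study's methods the reads were trimmed, aligned to mm10 with TopHat2 and called against the input with MACS2, separately for each replicate. The submitters' processing notes name TopHat2 2.0.9, and the methods name another version. The deposited lists give each peak's position and its enrichment, a ratio of precipitated over input signal computed by the authors. They hold no counts, strand or p-values, so the depth behind a value is unknown and no interval is given. A given enrichment recurs up to 75 times in the replicate 1 list.

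Peaks of both lists were intersected (at least 1 bp in common, 23901 shared intervals) and assigned to exons of GENCODE M21 with Python 3.11.15, pandas 2.3.3 and numpy 2.4.6. Coordinates were read as 1-based with both ends counted, the shortest peak having 200 nt. The intersection and the placing on transcripts were tested on simulated peaks and with bedtools. Comparisons are descriptive. Named genes are those of each family with the most intervals or the highest lower fold enrichment, the 10 highest lower values, the 5 most discordant pairs, known partners and every gene lacking a shared peak. The members and lists were chosen with earlier results of these data known. Alternatives changed the overlap, the fold minimum, the exon model, the ligands and the replicates. The inputs entered through the fold enrichment alone. No sequence is shown for Dcc and Sema6a.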

Additional observations from a re-analysis of the deposited data

How the results depend on the processing

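With 11 results under the alternatives that applied to each, 75 of 101 values stayed within the replicate spread or, for counts, within 1.5 times the value reported. No rise of a count could leave that range, since most genes already had a shared peak. The replicate spread was the standard deviation between the runs with 1 replicate left out, and those runs are in the tally too. The tally is therefore no measure of robustness. The fold enrichment of receptor pairs stayed below that of ligand pairs in every alternative run, and was 0.36 lower in replicate 1 alone and 0.17 lower in replicate 2 alone on the log2 scale (-0.357 and -0.166). The difference in the share of genes with a peak, 2.61 percentage points in favour of receptors, became -6.39 at a fold enrichment of at least 2, and ran from -3.03 to 2.69 when 1 replicate was left out. The difference in intervals per kilobase, -0.0175, became 0.00705 with an overlap of 50% of both peaks, 0.0186 when the midpoint had to lie in an exon, 0.0948 with secreted ligands and -0.149 per kilobase of coding sequence, and ran from -0.053 to -0.00709 with 1 replicate left out. The sign of these 2 differences is therefore not settled. Of the secreted ligands, which are fewer, 12 had a shared peak, with 52.4% of midpoints in CDS and 33.3% near the stop codon.

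The share of ligand midpoints near the stop codon was 27.9% at a fold enrichment of at least 2, 29.8% with whole intervals and 14.0% in a window of 100 nt, and that of receptors 16.7%, 15.2% and 2.63%. With 1 replicate it ran from 20% to 22.7% in ligands and from 10.1% to 12.9% in receptors. The share of receptor midpoints in CDS was 45.5% with an overlap of 50%, 35.4% at a fold enrichment of at least 2, 38.4% with whole intervals and 44.9% on transcripts with an annotated start and stop codon, an alternative chosen after seeing the data. It ran from 46.5% to 47.5% with 1 replicate, and that of ligands from 34.9% to 49.3%. The excess of GGAC inside intervals, 2.01 per kilobase, was 0.754 for the longer GGACT, and ran from 1.69 to 1.88 with 1 replicate. The cause of these shifts was not tested, apart from the narrower window. No paired analysis was possible because the inputs have no values of their own here and the precipitated samples form a single group. Without depth or expression, a missing peak cannot be told from a gene with few reads.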
